A study of Homo sapiens with 8 samples.

Results

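The 35 genes described here belong to the unfolded protein response and to the amino acid branch of the integrated stress response. They were taken by name, and each was measured by the brightest probe set that names it alone on the Affymetrix U133 Plus 2.0 array. All 35 of the 35 listed genes had such a probe set (72 probe sets in all), among 19775 genes measured. The genes fall in an arm of 19 regulators, enzymes, carriers and effectors around the transcription factor ATF4, and an arm of 16 sensors, chaperones, disulfide isomerases and degradation factors of the endoplasmic reticulum (ER). RNA came from 4 groups with 2 arrays each. The first group was trMCF clone 11, a single clone of human breast epithelial cells transformed early by a high dose of estradiol. The same clone had also been kept for 26 days in all-trans retinoic acid (ATRA, the acid form of vitamin A, a ligand of nuclear receptors), at 1 μM or at 10 μM. The parental line MCF-10F, an immortalized and normal-like breast epithelial line, was the fourth group. The question behind these arrays was whether ATRA brings the transformed clone back towards MCF-10F.

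The deposited values are signals on a linear scale, and every change below is a difference between group means of log2 signals, given with the standard error (SE) of a limma fit over 54613 probe sets. A gene is said to have risen or fallen where the p-value, adjusted by the method of Benjamini and Hochberg over all those probe sets, was under 0.05. Neither the labels nor the methods state if the paired arrays stem from independent cultures, so the p-values measure only the spread between these arrays, which may be technical. Per the labels, controls of the ATRA treatment were given the vehicle DMSO, but whether the trMCF clone 11 arrays, called untreated here, hold such cells is left unsaid. The label of trMCF clone 11 replicate 1 tags it as normal, against its title, by which it was grouped. Array medians lay between 47.3 and 48.8. The share of probe sets more than 2-fold apart between the 2 arrays was 7.71% in trMCF clone 11, 0.126% at 1 μM, 0.211% at 10 μM and 3.48% in MCF-10F. Of 7 breast epithelial markers measured, 6 had signals above 100 on both arrays of trMCF clone 11, of the 1 μM cells and of MCF-10F, and 5 at 10 μM. The defining leukocyte marker PTPRC stayed between 9.93 and 14.4 on all 8 arrays. The summed signal of 4 leukocyte markers was mostly CD14, except on MCF-10F replicate 1 (CD14 49.1 and CD3E 58.2). The sum was 192 to 269 in trMCF clone 11, 527 to 620 at 1 μM, 701 to 777 at 10 μM and 138 to 492 in MCF-10F. The keratin KRT14 was at 3230.3 and 4549 in trMCF clone 11, 212 and 116 at 1 μM, 42.3 and 34.0 at 10 μM, and 9150 and 1329.7 in MCF-10F. The summed signal of 4 endothelial markers, mostly PECAM1, was 222 to 339 in trMCF clone 11, 660.5 to 841 at 1 μM, 899 to 1263 at 10 μM and 173 to 1142 in MCF-10F. The summed signal of 8 fibroblast markers was 534 to 737 in trMCF clone 11, 363 to 367 at 1 μM, 386 to 395 at 10 μM and 1088 to 1834 in MCF-10F, and the part of these markers in the results was not tested.

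When misfolded proteins gather in the ER, membrane sensors react. The sensor kinase PERK phosphorylates the initiation factor eIF2 alpha, which slows translation and favours ATF4, and ATF4 switches on genes of amino acid synthesis and uptake together with DDIT3. The sensor IRE1 alpha, encoded by ERN1, splices the XBP1 messenger RNA, and the sensor ATF6 is cut in the Golgi. Spliced XBP1 and cleaved ATF6 switch on chaperones and the machinery that sends misfolded proteins to the proteasome. Amino acid shortage reaches ATF4 by another kinase, GCN2, without the ER. In secretory tissues such as the breast epithelium the ER arm matters most when much protein is secreted.

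Each arm has promoter elements of its own, and stretches of members that carry them are shown because the elements are sequence features that do not rest on the arrays. RefSeq promoter windows of the build GRCh38.p14, from 250 bases before to 50 bases after an annotated start, were found for 32 of the 35 genes. The ER stress element (ERSE), bound by ATF6 with NF-Y, was searched as CCAAT, then any 9 bases, then CCACG. It was present in 6 of 16 ER genes (CALR, CRELD2, HSP90B1, HSPA5, PDIA6 and XBP1) and in 0 of 16 genes of the ATF4 arm, against 0.0916% of the 27305 genes with a window. The unfolded protein response element TGACGTGG was present in 1 ER gene, HYOU1, against 0.927% of all genes. The composite C/EBP-ATF element TGATGNAA, of the kind ATF4 binds with a C/EBP partner, was present in 5 of 16 genes of the ATF4 arm (ASNS, ATF3, CEBPG, CHAC1 and SLC3A2) and in 1 of 16 ER genes, HERPUD1, against 4.46% of all genes. Both strands were searched, no 2 matches within a member overlapped, and a match is a run of letters, not a measured site. In the stretches below, written 5′ to 3′ along the gene's own strand, capitals mark the element, or its reverse complement where it lies on the opposite strand.
CRELD2 (chr22:49918542-49918584, + strand): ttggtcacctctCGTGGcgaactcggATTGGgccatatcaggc
HSPA5 (chr9:125241379-125241421, - strand): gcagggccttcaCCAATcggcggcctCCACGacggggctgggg
XBP1 (chr22:28800591-28800633, - strand): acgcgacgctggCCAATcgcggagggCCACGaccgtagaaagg
HYOU1 (chr11:119057374-119057405, - strand): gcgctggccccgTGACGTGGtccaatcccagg
HERPUD1 (chr16:56931954-56931985, + strand): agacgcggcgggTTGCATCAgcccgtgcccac
ASNS (chr7:97872457-97872488, - strand): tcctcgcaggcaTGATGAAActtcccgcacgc
CHAC1 (chr15:40953250-40953281, + strand): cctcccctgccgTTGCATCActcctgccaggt

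The first 3 stretches hold the ERSE, HYOU1 holds the unfolded protein response element, and the last 3 hold the composite element. The CRELD2 element lay 80 to 62 bases before the start on the opposite strand, the HSPA5 element 66 to 48 bases before it, and the ASNS element 68 to 61 bases before it. No exact match of any of the 3 elements was found in the windows of DDIT3, ERN1 or DNAJB9.

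**Figure D1:**
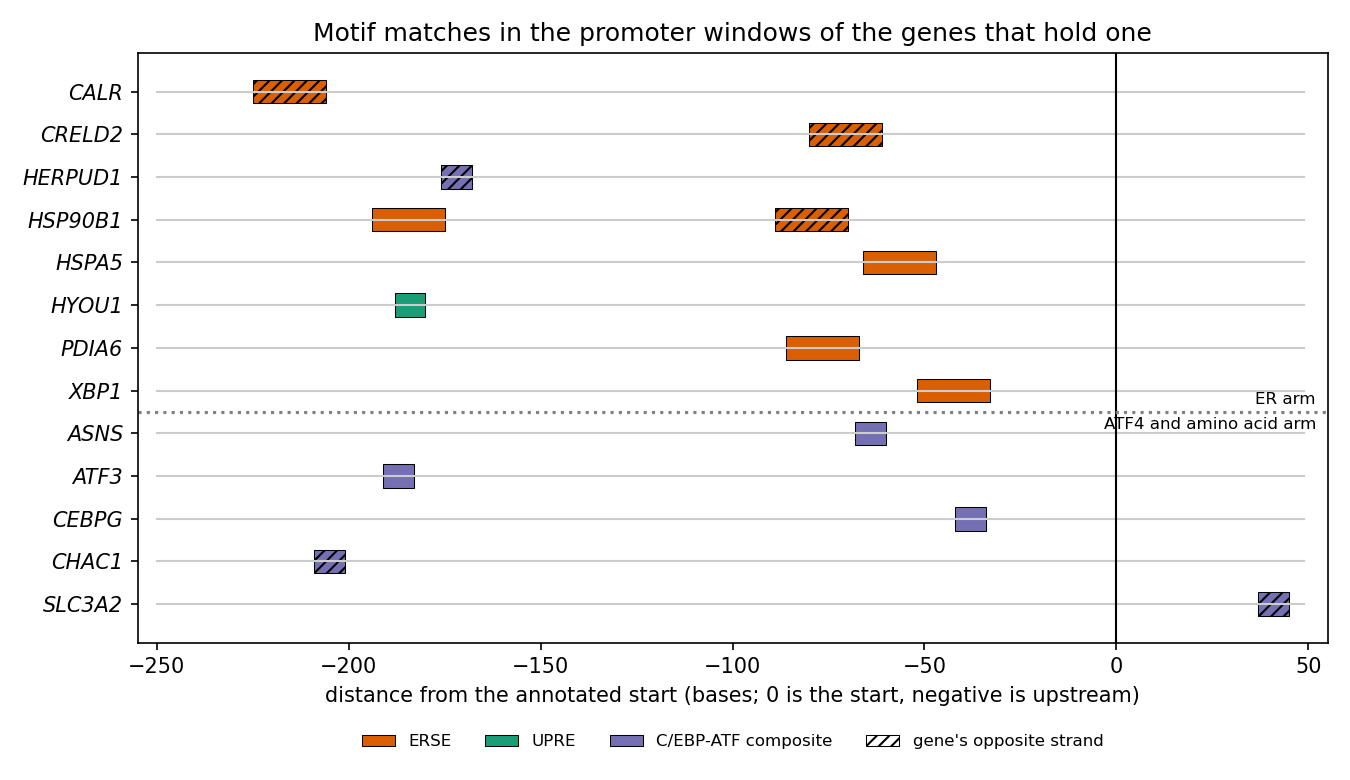
Positions of the 3 promoter elements in the 13 genes that hold one, in bases from the annotated start (x axis, 0 is the start). Bars are element matches, coloured by element and hatched where they lie on the strand opposite to the gene; the ERSE occurs only in rows of the ER arm, and SLC3A2 holds its match after the start.

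In trMCF clone 11, a few stress genes were high, while none of the classical ER chaperones rose with them. DDIT3, ERN1 and DNAJB9 were higher in trMCF clone 11 than in MCF-10F (3 of 35 members, against 1.88% of all genes), and CRELD2 was lower (1 of 35, against 2.64%). After 1 μM ATRA, DDIT3 and DNAJB9 fell (2 of 35, against 0.925% of all genes), and 0 of 35 rose, against 0.971%. After 10 μM ATRA, DDIT3, ERN1, DNAJB9 and HERPUD1 fell (4 of 35, against 3.89%) and CRELD2 rose (1 of 35, against 3.94%). The comparisons share the trMCF clone 11 arrays, so opposite signs in them are not separate observations. The study listed DDIT3, DNAJB9 and HERPUD1 as higher in the clone and lower after 1 μM ATRA, and CRELD2 the other way, on these 6 arrays, so the direction of these 4 genes is not independent evidence.

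**Figure D2:**
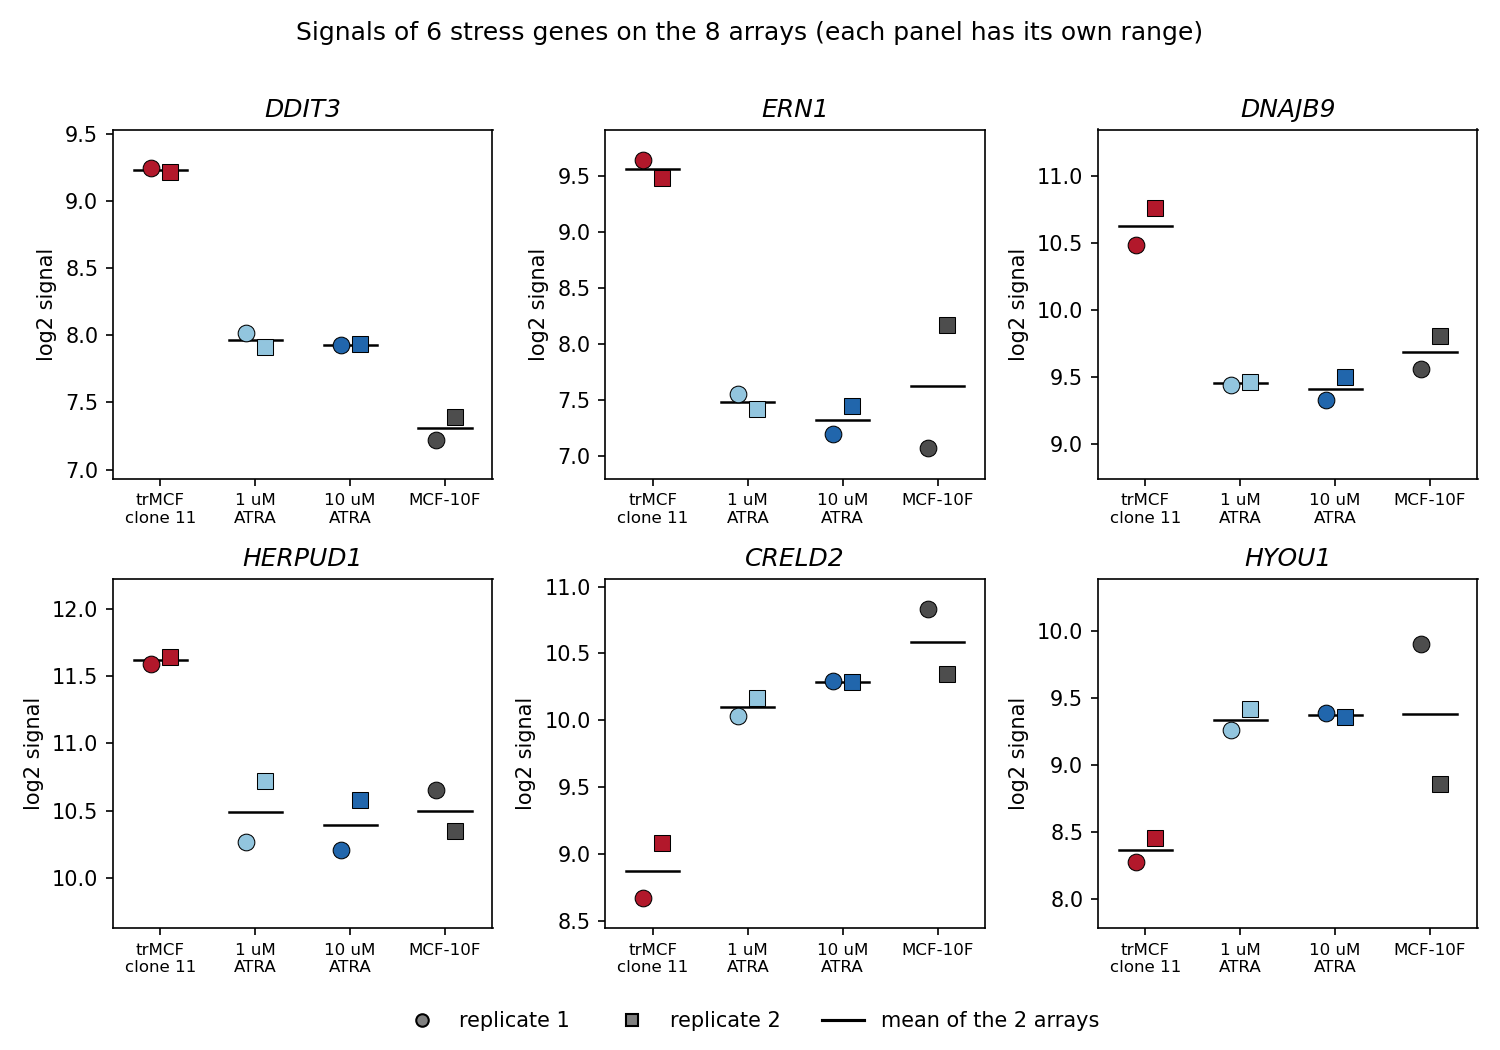
log2 signals (y axes, each with its own range) of 6 genes on the 8 arrays, by group (x axes). Circles and squares are replicates 1 and 2 and lines are group means; DDIT3, ERN1, DNAJB9 and HERPUD1 are highest on both trMCF clone 11 arrays, and CRELD2 and HYOU1 lowest.

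DDIT3 encodes CHOP, a C/EBP-family factor that ATF4 switches on and that promotes cell death under lasting stress. Its signals were 605 and 594 in trMCF clone 11, 259 and 241 at 1 μM, 243 and 245 at 10 μM, and 149 and 168 in MCF-10F. The groups did not overlap, apart from the doses with each other, and the ATRA-treated cells stood between the untreated clone and MCF-10F. The clone exceeded MCF-10F by 1.92 ± 0.15 (SE) on the log2 scale, 3.79-fold (adjusted p = 0.00788, limma). DDIT3 fell by 1.26 ± 0.15 at 1 μM (limma, adjusted p = 0.029), and the fall was 1.30 ± 0.13 with 10 μM (limma, adjusted p = 0.00541). It remained 0.66 ± 0.15 above MCF-10F at 1 μM (adjusted p = 0.187) and 0.62 ± 0.13 above it at 10 μM (adjusted p = 0.0766), neither of which passed in limma. That last difference passed without trMCF clone 11 replicate 1 or replicate 2 (adjusted p = 0.0433 each). DDIT3 had 1 probe set.

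ERN1 encodes IRE1 alpha, the sensor that splices XBP1. Its signals were 802 and 718 in trMCF clone 11, 188 and 171 at 1 μM, 147 and 175 at 10 μM, and 134 and 289 in MCF-10F. Both clone arrays stood above all 6 others, and the treated arrays lay within the wide range of MCF-10F. ERN1 was 1.95 ± 0.35 higher in the clone than in MCF-10F (adjusted p = 0.0479, limma), and this call was lost without MCF-10F replicate 1 (1.39, adjusted p = 0.083) or trMCF clone 11 replicate 1 (1.87, adjusted p = 0.108). It fell by 2.24 ± 0.33, 4.74-fold, at 10 μM (adjusted p = 0.0142, limma). At 1 μM its log2 change was -2.08 ± 0.35 (adjusted p = 0.0552, limma), which passed without MCF-10F replicate 1 or 2 (adjusted p = 0.0256 each) or without trMCF clone 11 replicate 2 (adjusted p = 0.041). The other 2 probe sets of ERN1 moved in the same direction in these comparisons, with smaller changes that did not pass.

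XBP1, the factor whose messenger RNA IRE1 alpha splices, did not pass in any comparison. Its signals were 426 and 783 in trMCF clone 11, 518 and 544 at 1 μM, 533 and 535 at 10 μM, and 504 and 803 in MCF-10F. The groups overlapped, since replicate 2 exceeded replicate 1 in both the clone and MCF-10F. The log2 differences were -0.14 (95% interval -1.0 to 0.72) for the clone against MCF-10F, -0.12 (-0.98 to 0.74) for 1 μM and -0.11 (-0.86 to 0.63) for 10 μM against the clone. The array measures the total XBP1 message by 3′ probe sets, and spliced and unspliced forms were not told apart.

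DNAJB9, also called ERdj4, is an ER cochaperone that delivers clients of the chaperone BiP to degradation. Its signals were 1433 and 1734 in trMCF clone 11, 695 and 706 at 1 μM, 642 and 725 at 10 μM, and 755 and 896 in MCF-10F. Both clone arrays stood above all others, and at this probe set both doses ended below MCF-10F. At the other probe sets of DNAJB9 the treated and MCF-10F arrays overlapped. DNAJB9 was 0.94 ± 0.17 higher in the clone than in MCF-10F (adjusted p = 0.0485, limma), fell by 1.17 ± 0.17 at 1 μM (adjusted p = 0.045, limma) and fell by 1.21 ± 0.16 at 10 μM (adjusted p = 0.0115, limma). All 3 DNAJB9 probe sets passed in all 3 of these comparisons. At its brightest probe set the first call was lost without either MCF-10F array or without trMCF clone 11 replicate 1 (0.81, 1.06 and 1.08 on the log2 scale, adjusted p = 0.207, 0.0773 and 0.0534), and the second without either MCF-10F array (adjusted p = 0.056 each).

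HERPUD1 encodes a membrane protein that organizes the ER degradation complex. Its signals were 3091 and 3205 in trMCF clone 11, 1229 and 1689 at 1 μM, 1180.3 and 1528 at 10 μM, and 1607 and 1301 in MCF-10F. The clone arrays were nearly equal and above the other 6, which overlapped each other. It fell by 1.23 ± 0.21 at 10 μM (adjusted p = 0.0228, limma). The log2 differences of 1.12 ± 0.21 for the clone against MCF-10F (adjusted p = 0.0504, limma) and of -1.13 ± 0.21 at 1 μM (adjusted p = 0.0644, limma) lay just outside the threshold. Without trMCF clone 11 replicate 2 the first of them passed (log2 difference 1.10, adjusted p = 0.0495). Its dimmer probe set changed in the same direction by less, -0.43 at 10 μM (adjusted p = 0.142), and did not pass in these comparisons.

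Among the other degradation genes, EDEM1, which helps to pull misfolded glycoproteins out of the folding cycle, followed another course. Its signals were 303 and 471 in trMCF clone 11, 398 and 357 at 1 μM, 340.2 and 307 at 10 μM, and 590.4 and 759.8 in MCF-10F. MCF-10F stood above all 6 arrays of the clone, treated or not. The log2 differences from MCF-10F were -0.83 ± 0.26 in the clone (adjusted p = 0.149), -0.83 ± 0.26 at 1 μM (adjusted p = 0.328) and -1.05 ± 0.24 at 10 μM (adjusted p = 0.0879) in limma, and none passed. The first was -0.51 without trMCF clone 11 replicate 1 (adjusted p = 0.281) and passed without replicate 2 (-1.14, adjusted p = 0.0266), and the last passed without either clone array (adjusted p = 0.0206 each). Values on each array are given for EDEM1 because of its course, seen in the data. SEL1L, the scaffold of the HRD1 ubiquitin ligase, ranged between 653 and 1012 and did not pass in any comparison.

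CRELD2 ran opposite to these genes. It encodes a secreted ER-resident protein with disulfide isomerase activity, and its promoter holds the ERSE printed above. Its signals were 408 and 541 in trMCF clone 11, 1046 and 1151 at 1 μM, 1255 and 1248 at 10 μM, and 1823 and 1299.6 in MCF-10F. The groups did not overlap, and their order was the clone, 1 μM, 10 μM and MCF-10F from lowest to highest. CRELD2 was lower in the clone than in MCF-10F, by -1.71 ± 0.23 (3.28-fold, adjusted p = 0.0276, limma), and this call was lost without MCF-10F replicate 1 (-1.47, adjusted p = 0.108) or trMCF clone 11 replicate 1 (-1.51, adjusted p = 0.0534). It rose by 1.41 ± 0.21 at 10 μM (adjusted p = 0.0149, limma), while the change of 1.22 ± 0.23 at 1 μM did not pass (adjusted p = 0.0666) except without trMCF clone 11 replicate 2 (1.43, adjusted p = 0.0248). Neither dose differed from MCF-10F past the threshold (-0.49, adjusted p = 0.578 at 1 μM, and -0.30, adjusted p = 0.637 at 10 μM, limma).

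Of the remaining ER chaperones, HYOU1, SDF2L1 and MANF had negative differences in the clone, as CRELD2 did, but smaller and without passing. HYOU1, a large exchange factor and holdase of the ER, had signals of 309.7 and 352 in trMCF clone 11, 613 and 683 at 1 μM, 669.5 and 657 at 10 μM, and 955 and 464 in MCF-10F. Both clone arrays were lowest, and the MCF-10F arrays lay on either side of the treated ones. Its log2 differences were -1.01 ± 0.34 for the clone against MCF-10F (adjusted p = 0.173), 0.97 ± 0.34 at 1 μM (adjusted p = 0.207) and 1.01 ± 0.31 at 10 μM (adjusted p = 0.111, all limma). The first was -0.49 without MCF-10F replicate 1 (adjusted p = 0.392) and passed without replicate 2 (-1.53, adjusted p = 0.0381), and the last passed without either MCF-10F array (adjusted p = 0.0149 each). SDF2L1, a cochaperone of BiP complexes, differed by -1.20 ± 0.32 in the clone (adjusted p = 0.109), by 1.01 ± 0.32 at 1 μM (adjusted p = 0.171) and with 10 μM by 0.68 ± 0.38 (adjusted p = 0.401). MANF, a secreted factor retained in the ER by BiP, differed by -0.99 ± 0.30 in the clone (adjusted p = 0.14), by 0.40 ± 0.30 at 1 μM (adjusted p = 0.534) and with 10 μM by 0.57 ± 0.28 (adjusted p = 0.315, limma). Without trMCF clone 11 replicate 2, SDF2L1 (-1.49, adjusted p = 0.0451) and MANF (-1.40, adjusted p = 0.0162) passed in the clone, and MANF rose at 10 μM (0.98, adjusted p = 0.0222). Without clone replicate 1, SDF2L1 was -0.90 (adjusted p = 0.241) and MANF -0.58 (adjusted p = 0.227) in the clone, and MANF 0.16 at 10 μM (adjusted p = 0.746). SDF2L1 at 10 μM was 0.20 without 10 μM replicate 2 (adjusted p = 0.922).

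HSPA5 encodes BiP, the central ER chaperone and the usual sign of an active unfolded protein response, and its groups overlapped at its brightest probe set. Its signals were 3828 and 4071 in trMCF clone 11, 3118 and 4365 at 1 μM, 3011 and 4022 at 10 μM, and 4767 and 4027 in MCF-10F. At each dose 1 array lay below both clone arrays, and at 1 μM the other lay above them. The log2 difference was -0.15 (95% interval -0.66 to 0.36) for the clone against MCF-10F, -0.10 (-0.61 to 0.42) at 1 μM and -0.18 (-0.70 to 0.33) at 10 μM against the clone. HSP90B1 (GRP94) and CALR (calreticulin) fold secretory proteins, and PDIA6 and PDIA4 form disulfide bonds. At their brightest probe sets these genes moved by no more than 0.37 on the log2 scale in either direction in those comparisons, and none of them passed. Some dimmer probe sets moved further. That of HSP90B1 had 372 and 434 at 1 μM, against 565 and 648 in the clone. That of HSPA5 had 102 and 263 in the clone, against 281 and 436 in MCF-10F. PDIA4 gave -0.37 ± 0.18 in the clone, 0.29 ± 0.18 at 1 μM and 0.35 ± 0.16 at 10 μM. DNAJC3, a cochaperone that restrains PERK, also did not pass.

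Over the 16 ER genes the clone was below MCF-10F in 13 and above it in 3, namely ERN1, DNAJB9 and HERPUD1. Of all 19775 genes, 8311 were below MCF-10F in the clone. The median log2 difference was -0.28 for these 16 genes and 0.06 for all 19775 genes. At the brightest probe sets, the means of both ATRA groups were below MCF-10F in 16 of 16 ER genes. Of all 19775 genes, 9777 were below it at 1 μM and 8352 at 10 μM. The medians of the ER genes were -0.24 at 1 μM and -0.27 at 10 μM, against 0.00 and 0.05 for all genes. At either dose 0 of 16 passed. Some differences were very small, such as -0.005 for HERPUD1 at 1 μM and -0.006 for HYOU1 at 10 μM. Some dimmer probe sets, among them those of DNAJB9 and HERPUD1, had ATRA means above MCF-10F. The MCF-10F arrays are shared by these comparisons. Among all 35 genes, 0 passed against MCF-10F at 1 μM (0.612% of all genes did) and 0 at 10 μM (2.56% did). At 10 μM 3 of 35 passed without either clone array (DDIT3, TRIB3 and EDEM1), as did 6.39% of all genes.

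**Figure D3:**
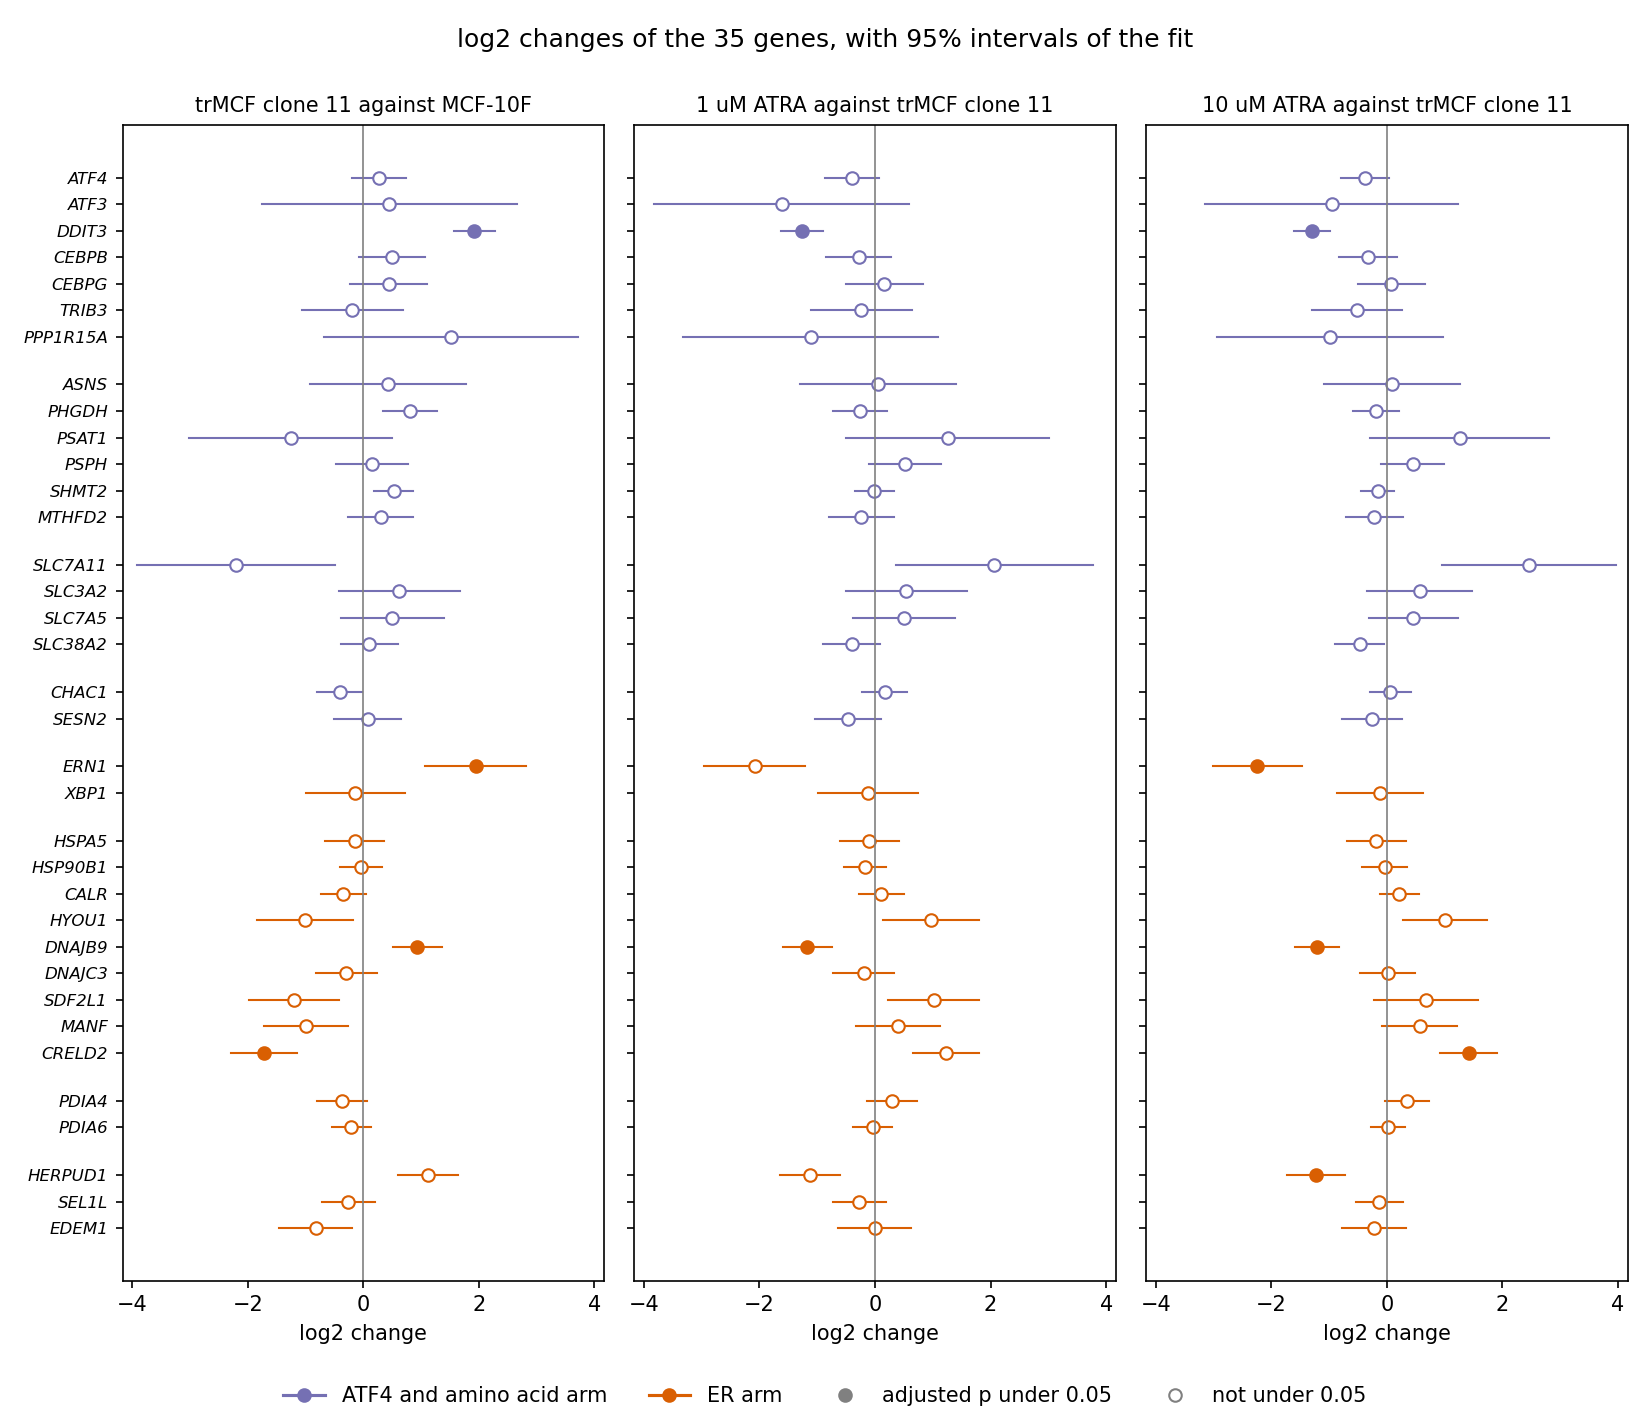
log2 changes (x axes) of the 35 genes (rows, grouped by role) in 3 comparisons, as points with the 95% interval of the fit. Filled points have an adjusted p under 0.05: 4 genes in the clone against MCF-10F, 2 at 1 μM and 5 at 10 μM against the clone.

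In the ATF4 arm, DDIT3 was the only one of 19 genes that passed in any comparison. ATF4 itself, whose protein is set mostly by translation, had signals of 8295 and 6917 in trMCF clone 11, 6075 and 5390.2 at 1 μM, 6199 and 5479.9 at 10 μM, and 5576 and 7054 in MCF-10F. All 4 treated arrays lay below both untreated clone arrays, and MCF-10F overlapped with each group. The log2 difference was 0.27 ± 0.19 for the clone against MCF-10F (adjusted p = 0.504), -0.40 ± 0.19 at 1 μM (adjusted p = 0.33) and -0.38 ± 0.18 at 10 μM (adjusted p = 0.297, all limma). Of the 7 regulators, 6 were above MCF-10F in the clone and 6 were below the clone at each dose, with 1 call each time, DDIT3. Of all 19775 genes, 11464 were above MCF-10F in the clone, and 11526 at 1 μM and 10312 at 10 μM were below the clone. CEBPB and CEBPG, partners of ATF4, differed by at most 0.49 on the log2 scale between the clone and MCF-10F or either dose, without passing. ATF3, a stress-induced repressor, was 5.66-fold apart between the 2 arrays at 1 μM, 3.26-fold at 10 μM and 3.25-fold in MCF-10F, and its group differences did not pass.

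None of the 6 enzymes of serine, glycine, asparagine and one-carbon metabolism passed in any comparison. ASNS, asparagine synthetase, is a classical ATF4 target with the composite element shown above. Its signals were 464 and 1638 in trMCF clone 11, 884 and 928 at 1 μM, 1013 and 851 at 10 μM, and 682 and 617 in MCF-10F. The clone arrays lay on either side of all others. The log2 difference was 0.43 (95% interval -0.92 to 1.77) for the clone against MCF-10F, 0.05 (-1.29 to 1.40) at 1 μM and 0.09 (-1.09 to 1.27) at 10 μM against the clone. Without trMCF clone 11 replicate 1 ASNS was 1.34 above MCF-10F in the clone (adjusted p = 0.035), and without replicate 2 the difference was -0.48 (adjusted p = 0.107). Against the clone, ASNS passed at 1 μM without clone replicate 2 (0.96, adjusted p = 0.0223) and at 10 μM in opposite directions, with -0.82 without replicate 1 (adjusted p = 0.0425) and 1.0 without replicate 2 (adjusted p = 0.00961).

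PHGDH and SHMT2, which open serine synthesis and turn serine into glycine, were higher on both arrays of the clone and of both doses than on either MCF-10F array. PHGDH differed from MCF-10F by 0.81 ± 0.19 in the clone (adjusted p = 0.0822), by 0.54 ± 0.19 at 1 μM (adjusted p = 0.391) and with 10 μM by 0.62 ± 0.17 (adjusted p = 0.151, limma). SHMT2 differed by 0.53 ± 0.14 (adjusted p = 0.1), 0.51 ± 0.14 (adjusted p = 0.252) and 0.37 ± 0.12 (adjusted p = 0.235) in the same order, and none passed in limma. Over the 6 enzymes the difference from MCF-10F was positive in 6 at each dose and in 5 in the clone. Over all 19775 genes it was positive in 9998 at 1 μM, in 11423 at 10 μM and in 11464 in the clone. MTHFD2, of mitochondrial one-carbon metabolism, and PSPH, the last enzyme of serine synthesis, did not pass in any comparison.

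At the brightest probe sets, the 2 trMCF clone 11 arrays disagreed more over the ATF4 arm than over the ER arm. In the clone, 5 of 19 genes of the ATF4 arm were more than 2-fold apart between the 2 arrays (TRIB3, PPP1R15A, ASNS, PSAT1 and SLC7A11), against 0 of 16 ER genes and 7.33% of all genes. The counts were 1 of 19 and 0 of 16 at 1 μM, 1 of 19 and 0 of 16 at 10 μM, and 3 of 19 and 2 of 16 in MCF-10F, against 0.091%, 0.142% and 3.84% of all genes, so that both arms held widely spaced pairs in MCF-10F as well. These counts are descriptions of 2 arrays a group and the difference between arms was not tested. Dimmer probe sets of the ER genes ERN1 (477 and 217) and HSPA5 (102 and 263) were also more than 2-fold apart in the clone. PSAT1, which acts between PHGDH and PSPH, had signals of 405 and 2154 in trMCF clone 11, 2361 and 2127 at 1 μM, 2538 and 1969.8 at 10 μM, and 2261 and 2188 in MCF-10F. The low value was that of clone replicate 1 alone. PPP1R15A (GADD34), which restores translation by removing the phosphate from eIF2 alpha, had 956 and 129.8 in the clone, against 128 and 119 in MCF-10F, so that here replicate 1 was the high one. These genes were picked after their values were seen. Group differences of PSAT1 (-1.25 in the clone, 1.26 at 1 μM and 1.26 at 10 μM) and of PPP1R15A (1.51 in the clone) did not pass. Without clone replicate 2 they did: PSAT1 -2.46 in the clone (adjusted p = 0.00465), 2.47 at 1 μM (adjusted p = 0.0054) and 2.46 at 10 μM (adjusted p = 0.000965, limma), PPP1R15A 2.96 in the clone (adjusted p = 0.0131). Without clone replicate 1 the PSAT1 differences were -0.05, 0.06 and 0.05, and the PPP1R15A difference was 0.07.

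**Figure D4:**
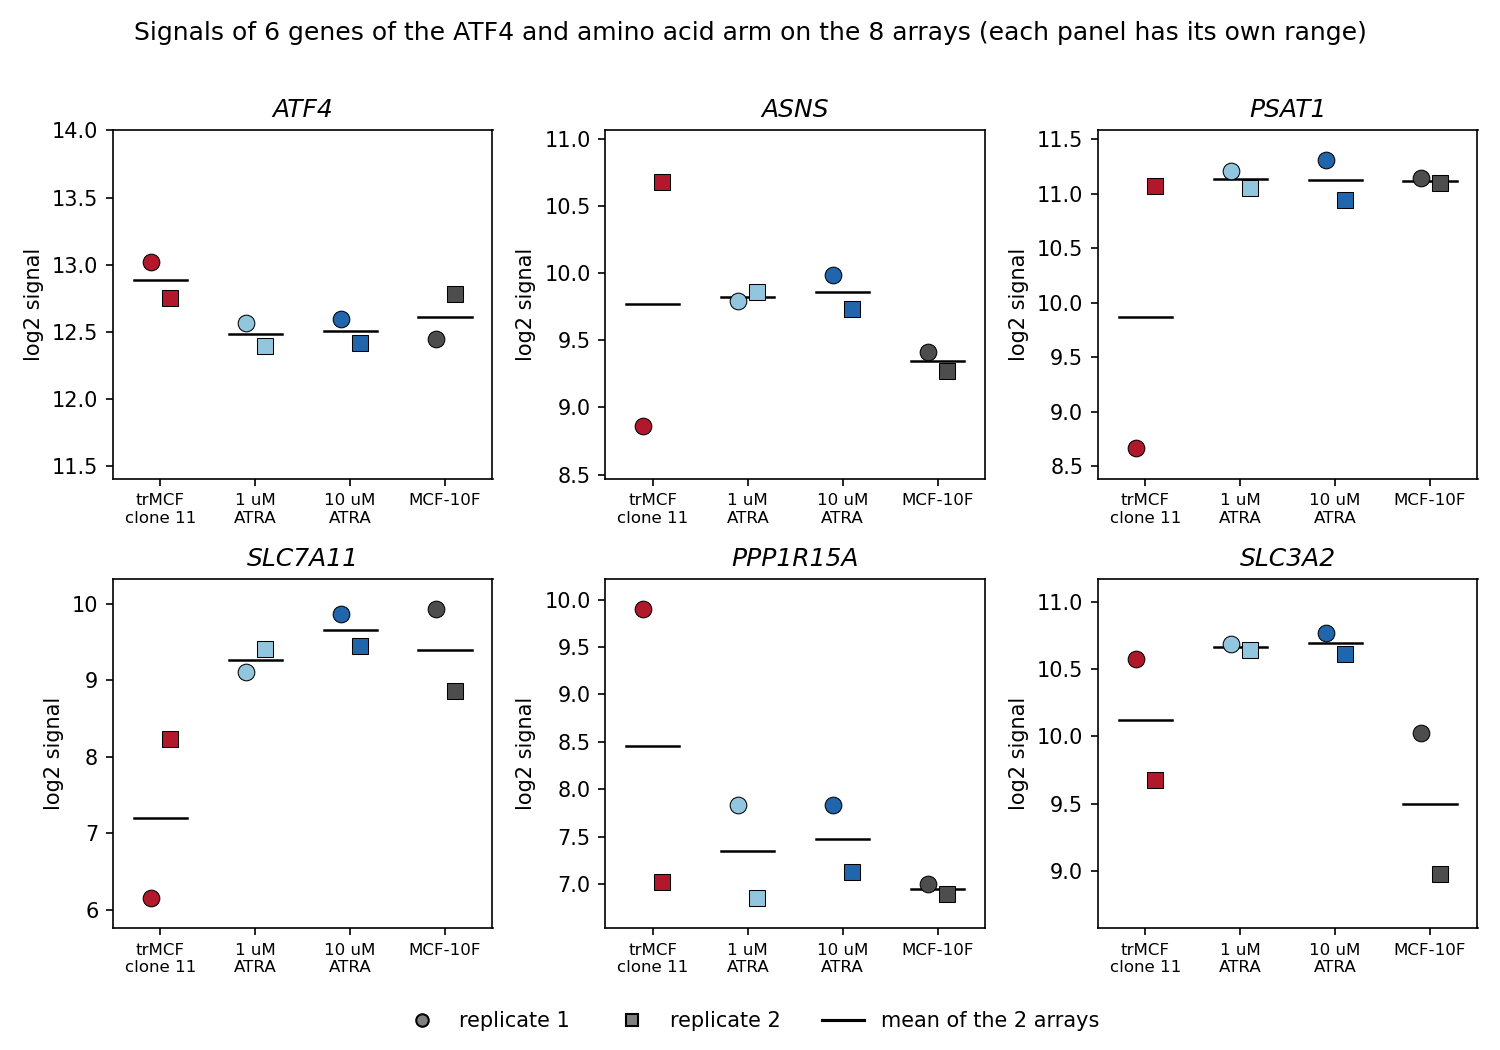
log2 signals (y axes, each with its own range) of 6 genes of the ATF4 and amino acid arm on the 8 arrays, by group (x axes). Circles and squares are replicates 1 and 2 and lines are group means; in trMCF clone 11 the replicates lie far apart for ASNS, PSAT1, SLC7A11 and PPP1R15A.

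**Figure D5:**
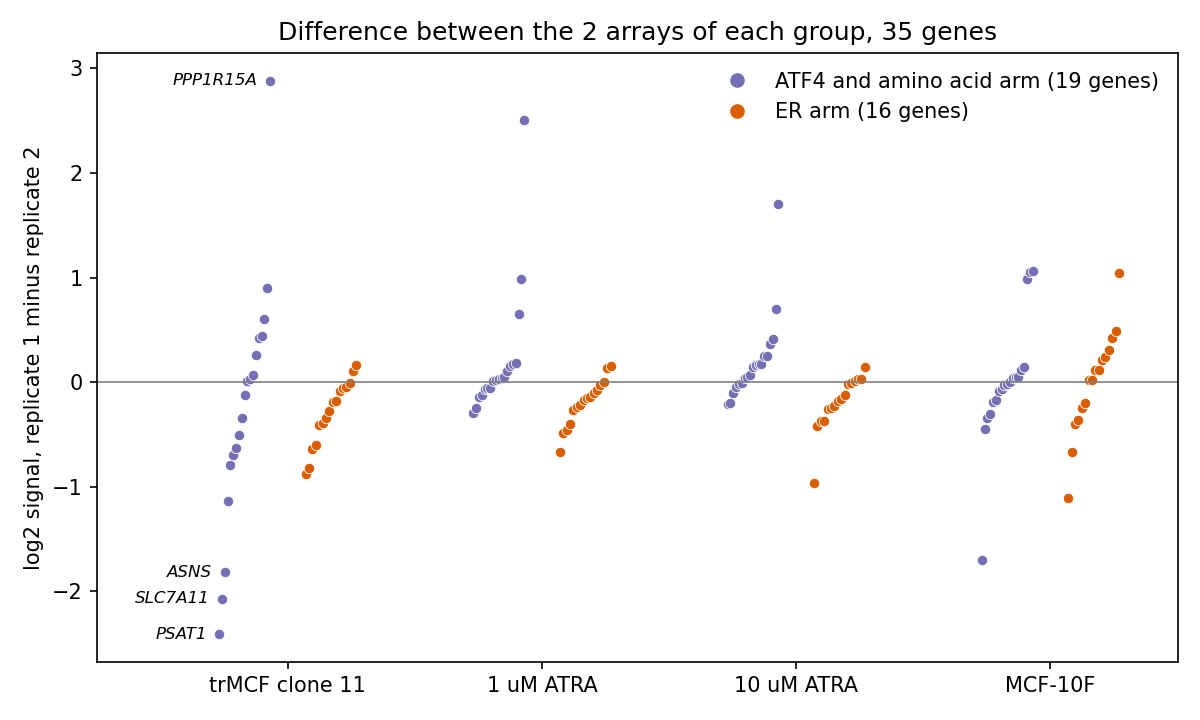
Difference of log2 signals between replicate 1 and replicate 2 (y axis) for the 35 genes in each group (x axis), 1 point a gene. In trMCF clone 11, PSAT1, SLC7A11 and ASNS are low and PPP1R15A is high in replicate 1, while all 16 ER genes lie within 2-fold.

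Among the carriers, SLC7A11, the cystine transporter that feeds glutathione synthesis, differed widely between the untreated clone and each other group. Its clone arrays lay far apart. Its signals were 71.5 and 301 in trMCF clone 11, 554 and 681 at 1 μM, 931 and 698 at 10 μM, and 975 and 466 in MCF-10F. Both clone arrays were below all 6 others. The log2 difference was -2.20 ± 0.70 for the clone against MCF-10F (adjusted p = 0.155), 2.07 ± 0.70 at 1 μM (adjusted p = 0.195) and 2.46 ± 0.64 at 10 μM (adjusted p = 0.0725, all limma), and none passed unless trMCF clone 11 replicate 2 was left out (-3.24, 3.10 and 3.49, adjusted p = 0.0133, 0.0167 and 0.00311). Without clone replicate 1 they were -1.17, 1.03 and 1.42 (adjusted p = 0.251, 0.313 and 0.108). SLC3A2, the heavy chain that SLC7A11 and SLC7A5 need at the membrane, and SLC7A5, the leucine carrier, were higher on all 4 treated arrays than in MCF-10F. They were also higher there than on both untreated clone arrays. Against the clone SLC3A2 changed by 0.54 at 1 μM and 0.57 at 10 μM, and SLC7A5 by 0.51 and 0.45, without passing. SLC3A2 differed from MCF-10F by 1.17 ± 0.42 at 1 μM and 1.19 ± 0.39 at 10 μM (adjusted p = 0.418 and 0.221), and SLC7A5 by 1.01 ± 0.36 and 0.96 ± 0.33 (adjusted p = 0.405 and 0.245, limma). Without MCF-10F replicate 2 these were 0.64 and 0.67 for SLC3A2 and 0.52 and 0.47 for SLC7A5, and without replicate 1 they were 1.69 and 1.72 for SLC3A2 and 1.5 and 1.45 for SLC7A5, none of which passed. SLC38A2, the glutamine and alanine carrier that starvation induces, had lower signals on all 4 treated arrays than on the others, without passing at its brightest probe set. Another of its 3 probe sets passed at 10 μM (-0.67, adjusted p = 0.0443, limma). The effectors CHAC1, which degrades glutathione, and SESN2, which holds back mTORC1, did not pass in any comparison.

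No member was told apart between the doses at this number of arrays. The log2 differences of 10 μM against 1 μM ran from -0.33 to 0.66 over the 35 genes, and 0 passed, as among all genes (0%), with 922 of 54613 probe sets (1.69%) at an unadjusted p under 0.05. In a fit of the 4 dose arrays alone also 0 of 35 passed, and the smallest adjusted p was that of TRIB3, a pseudokinase that inhibits ATF4 (-0.28, adjusted p = 0.735, limma). DDIT3 differed between doses by -0.04 (95% interval -0.35 to 0.27) and CRELD2 by 0.19 (-0.30 to 0.68). By the looser criterion of a 2-fold change with an unadjusted p under 0.05, 7 of 35 genes passed in the clone against MCF-10F (9.2% of all genes), 7 at 1 μM (7.89%) and 7 at 10 μM (8.33%) against the clone. Against MCF-10F, 2 passed at 1 μM (3.72%) and 2 at 10 μM (4.51%), and 0 passed between doses (0.101%).

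Every call among the 35 genes needed all of the treated arrays in its fit, apart from those at 10 μM, which outlasted the loss of either 1 μM array. Leaving out either 1 μM array ended every call in the clone against MCF-10F and at 1 μM. Leaving out either 10 μM array ended every call at 10 μM. The changes stayed close to those given (DDIT3 at 10 μM -1.29 and -1.30). Calls over the whole array also became rare or absent in these fits, so the loss was not particular to the 35 genes. Without trMCF clone 11 replicate 1 there were 2 calls in the clone against MCF-10F (DDIT3 kept and ASNS gained; 3.02% of all genes were called), 2 at 1 μM (1.59%) and 8 at 10 μM (7.45%). Without replicate 2 there were 12, 9 and 11 calls, against 17.9%, 15.1% and 20.3% of all genes, so that calls became more frequent over the whole array. Without MCF-10F replicate 1 only the DDIT3 call was left in the clone (0.804% of all genes).

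Other genes of the same pathways gave few calls. Of the stress kinases, ATF6 and eIF2 factors 19 of 19 were measured, of other ATF4 targets and aminoacyl-tRNA synthetases 35 of 37, and of other ER folding, translocation and degradation genes 36 of 41. In the clone against MCF-10F, 2 of these 90 genes were lower (2.64% of all genes were) and 0 were higher (1.88%), so that their share was near that of all genes. JDP2, a repressor of stress transcription, had 119 and 103 in the clone, against 315 and 262 in MCF-10F (-1.38 ± 0.18, adjusted p = 0.0244, limma). Its dimmer probe set changed by 0.01 and did not pass. EIF2S1, the alpha subunit of eIF2, had 945 and 1129 in the clone, against 2534 and 2125 in MCF-10F (-1.17 ± 0.17, adjusted p = 0.0322, limma). A dimmer probe set of EIF2S1 passed (-1.54, adjusted p = 0.0389, limma) and another did not (-1.37, adjusted p = 0.0748, limma). JDP2 lost its call without MCF-10F replicate 1 (-1.24) or either 1 μM array (-1.38). EIF2S1 lost its call without either MCF-10F array (-1.04 and -1.29), trMCF clone 11 replicate 1 (-1.04) or either 1 μM array (-1.17). Against the clone, EIF2S1 rose at 10 μM to 1790 and 1595 (0.71 ± 0.16, adjusted p = 0.048, limma), still below MCF-10F. Its other probe sets changed there by 0.42 and 0.29 and did not pass.

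At 1 μM 0 of the 90 genes passed against the clone, and at 10 μM 6 rose (3.94% of all genes did) and 3 fell (3.89%), again near the share of all genes. Of the 6 that rose, 3 were among the 19 stress kinases, ATF6 and eIF2 factors, which was not tested. NUPR1, a small stress-induced chromatin protein, had 229 and 224 at 10 μM, against 3869 and 1148 in the untreated clone (-3.22 ± 0.50, adjusted p = 0.0172, limma). At 1 μM NUPR1 had 255 and 192, and in MCF-10F it had 266 and 350.1, so that only the untreated clone was high. ERO1A, the oxidase that recharges disulfide isomerases, had 1549 and 1275 at 10 μM, against 3003 and 4093 in the clone (-1.32 ± 0.25, adjusted p = 0.0278, limma). MCF-10F had 2841 and 4295, so that ERO1A at 10 μM was below both lines. Its dimmer probe sets changed by -0.67 and -0.89 and did not pass. PDIA3, a glycoprotein disulfide isomerase, had 703 and 1003, against 2612 and 2038 (-1.46 ± 0.26, adjusted p = 0.0258, limma). It was also below MCF-10F, with 1513 and 2238. The other 2 probe sets of PDIA3, both dimmer, changed by 0.06 and -0.08. DNAJB11, a BiP cochaperone, had 2201 and 2509 at 10 μM, against 1029 and 1348 in the clone (1.0 ± 0.18, adjusted p = 0.0237, limma). MCF-10F had 1991 and 1796, so that DNAJB11 at 10 μM was above both lines. SLC7A1, an arginine carrier, rose by 0.73 ± 0.15 (adjusted p = 0.0345, limma). Its other probe sets changed by 0.77, 0.41, 0.16 and -0.19 and did not pass. Each of these 5 calls was lost without either 10 μM array (adjusted p 0.0997 to 0.234) or either 1 μM array (adjusted p 0.0525 to 0.0873), and those of PDIA3 and SLC7A1 also without trMCF clone 11 replicate 1 (adjusted p = 0.0633 and 0.07).

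Of 20 heat shock genes, which respond to misfolding outside the ER, 15 were measured. Of these 0 passed in the clone (1.88% of all genes were higher and 2.64% lower) and 0 at 1 μM (0.971% and 0.925%). At 10 μM 1 of 15 rose (3.94% of all genes did), the mitochondrial cochaperonin HSPE1, and 0 fell (3.89%). Such small counts do not set these genes apart from all genes. HSPE1 had 5668 and 5658 at 10 μM, against 2879 and 3132 in the untreated clone (0.92 ± 0.14, adjusted p = 0.0173, limma), and its call was lost without either 10 μM array (adjusted p = 0.148 and 0.131) or either 1 μM array (adjusted p = 0.0583 each). Against MCF-10F, 14 of 15 heat shock genes were higher at 10 μM, with a median of 0.50. At 1 μM 13 of 15 were, with a median of 0.55. None passed at 10 μM (2.56% of all genes did) or at 1 μM (0.612%). Of all 19775 genes, 11423 were higher at 10 μM, with a median of 0.05, and 9998 at 1 μM, with a median of 0.00.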

How the data were processed

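RNA of 8 samples, 2 per group, had been hybridised to Affymetrix U133 Plus 2.0 arrays. The deposited intensity values are 1 linear signal per probe set and array, already normalized between arrays by the authors. The methods mention MAS 5.0 (globally scaled) as well as Iterative Plier without saying from which one the table came. The 54675 probe sets held 62 controls, which were left out. Of the 54613 kept, 41091 named 1 gene, 1801 several and 11721 none in the platform annotation. All deposited columns were used.

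Signals were taken to log2 with no pseudocount, filter or further normalization and fitted with limma 3.58.1 in R 4.3.3. Comparisons among the untreated clone, 1 μM and MCF-10F used 6 arrays, and those with 10 μM all 8. P-values were two-sided and adjusted by Benjamini-Hochberg over all probe sets. The fits were tested on simulated data. The number of arrays limits the precision.

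The members and gene lists were chosen with earlier results of these data known. Values on every array are given for members that passed anywhere and for ATF4, XBP1, HSPA5, DDIT3 and ASNS. Those of HYOU1, EDEM1, PSAT1, PPP1R15A and SLC7A11 were added after their values were seen. Of the other pathway genes, up to 6 per comparison with the smallest p are named. Alternatives covered the arrays fitted, normalization, floor, pseudocount, prior, dim probe sets, probe set choice, replicate block, the study's fold criterion and each array left out.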

Additional observations from a re-analysis of the deposited data

How the results depend on the processing

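Counts of the 35 genes that passed depended on the fit. For trMCF clone 11 against MCF-10F, the count of 4 became 7 with all 8 arrays, 0 with only the 4 arrays compared, 2 with the replicate number as a block and 2 with a floor of 16. For 1 μM against the clone, 2 became 5 with all 8 arrays, 4 with the mean over probe sets, 1 with a trended robust prior, 1 with a pseudocount of 16, 0 with the block and 0 with the floor. For 10 μM against the clone, 5 became 2 with only the 4 arrays and 2 with the floor. For 10 μM against MCF-10F, 0 became 1 with the floor, 1 with the pseudocount and 1 with the mean over probe sets. A 2-fold change with an unadjusted p under 0.05 gave 7 in each of the first 3 comparisons and 2 at either dose against MCF-10F. Leaving out 1 array gave 0 to 12 in the clone, 0 to 9 at 1 μM and 0 to 11 at 10 μM against the clone, and 0 to 3 at 10 μM against MCF-10F, while the share of all genes called ran from 0.086% to 17.9%, 0% to 15.1%, 0.258% to 20.3% and 0.228% to 6.39%. The causes were not tested.

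The labels do not say what a shared replicate number stands for, and deviations of same-numbered samples correlated at -0.056 to 0.351 over the pairs of groups, not above 0.1 in each, so the numbers were not taken as pairs. With the replicate block 2 genes passed in the clone, 0 at 1 μM, where the calls of DDIT3 and DNAJB9 were lost, 5 at 10 μM against the clone, and 0 in the other 3 comparisons.

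Some small differences changed sign. Quantile normalization gave -0.0092 for ASNS at 1 μM and 0.0065 for DDIT3 between doses. The mean over probe sets gave 0.18 for HSPA5 at 1 μM and 0.13 at 10 μM, and leaving out shared-target probe sets gave -0.057 for ASNS at 10 μM. With 1 array left out, ASNS ranged over -0.48 to 1.34 in the clone, -0.85 to 0.96 at 1 μM and -0.82 to 1.0 at 10 μM. XBP1 ranged over -0.58 to 0.30, -0.56 to 0.32 and -0.55 to 0.33 in the same comparisons. HSPA5 ranged over -0.34 to 0.14 at 1 μM and -0.391 to 0.0266 at 10 μM, MANF over -0.0106 to 0.81 at 1 μM, and DDIT3 over -0.0894 to 0.0145 between doses. Over 73 gene differences and all alternatives, 1100 values kept their sign and side of the threshold, 125 lost a call, 59 gained one and 17 changed sign.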
